A study of Rattus norvegicus with 6 samples.

Results

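The 9 genes described here encode enzymes that turn squalene into cholesterol: Sqle, Lss, Cyp51, Tm7sf2, Msmo1, Nsdhl, Hsd17b7, Sc5d and Dhcr7. They were found on the arrays through the RefSeq accession of each non-control probe, which gave 14 probes among the 61526 probes used, and 9 symbols among 15277. The tissue was renal cortex, the outer layer of the kidney with its filtering glomeruli, and total RNA of 6 male Sprague-Dawley rats (Crl:CD(SD)) was measured with 1 Agilent array for each animal, in a single colour. The treated group was 3 rats dosed with o-anthranilic acid (1000 mg/kg/day), and the vehicle group was 3 rats dosed with corn oil, both for 4 weeks. All were bought at 5 weeks of age and kept on the same basal diet, and the labels give no genetic change in either group. o-Anthranilic acid is an aromatic amino acid that also arises in the breakdown of tryptophan. The 3 animals of a group are named as biological replicates in the series' design.

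Cholesterol is built from acetyl-CoA in a first stretch that ends at squalene and a second stretch that oxidises, closes and trims the sterol rings. The enzymes of both stretches sit mostly in the endoplasmic reticulum, and their genes are classic targets of SREBP-2, a membrane-bound transcription factor that is released when the sterol content of that membrane falls. Insig proteins hold SREBP-2 back when sterols are plentiful. Kidney tubules, whose brush border and basolateral membranes are rich in cholesterol, both make sterols and take them up from lipoproteins.

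Signals are given as normalised log2 signal, the log2 of the scanner's processed brightness minus the 75th percentile of the same array, so that 0 is the level of that percentile. The 9 genes had been picked with their treated-minus-vehicle differences known, so these differences are a description and carry no test. In whole cortex RNA, fewer cells of a type and less RNA per cell cannot be told apart. All 14 probes were well above background on all 6 arrays, and all passed the filter on dim probes. All 14 had a log2 fold change above 0, between 0.09 and 0.75, where 47.4% of all 41551 probes tested did. At 12 of the 14, every treated array stood above every vehicle array, a pattern that 6.30% of all probes showed (8.61% showed the opposite one, as did 0 of the 14), and at 9 the mean was at least 1.25-fold higher, as at 5.50% of all probes (6.65% were lower by that much). No probe on the array passed limma's test with Benjamini-Hochberg adjustment over all probes: 0 of 41551 were called (0%), the smallest adjusted p being 0.102. Without adjustment, 3512 probes (8.45%) had a limma p under 0.05, 1423 higher and 2089 lower.

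With probes of a gene averaged, the median log2 fold change over the 9 genes was 0.36, against -0.02 over all 11913 genes tested. All 9 were above 0, as were 45.1% of all genes. For 7 of the 9 the groups did not overlap (6.11% of all genes with treated above vehicle, 9.91% with treated below), and 5 were at least 1.25-fold higher (4.94% of all genes). The choice of the 9 used this contrast, so nothing is read from these counts. The order from the largest was Sqle at 0.66, Tm7sf2 at 0.66, Hsd17b7 at 0.62, Cyp51 at 0.48, Lss at 0.36, Sc5d at 0.32, Dhcr7 at 0.27, Msmo1 at 0.20 and Nsdhl at 0.09. The first 3 differed from each other by less than the pooled SD between replicates of any of them, which was 0.13 for Sqle, 0.06 for Tm7sf2 and 0.12 for Hsd17b7. Larger and smaller differences were interleaved along the pathway: Hsd17b7, among the largest, follows directly on Nsdhl, the smallest.

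**Figure D1:**
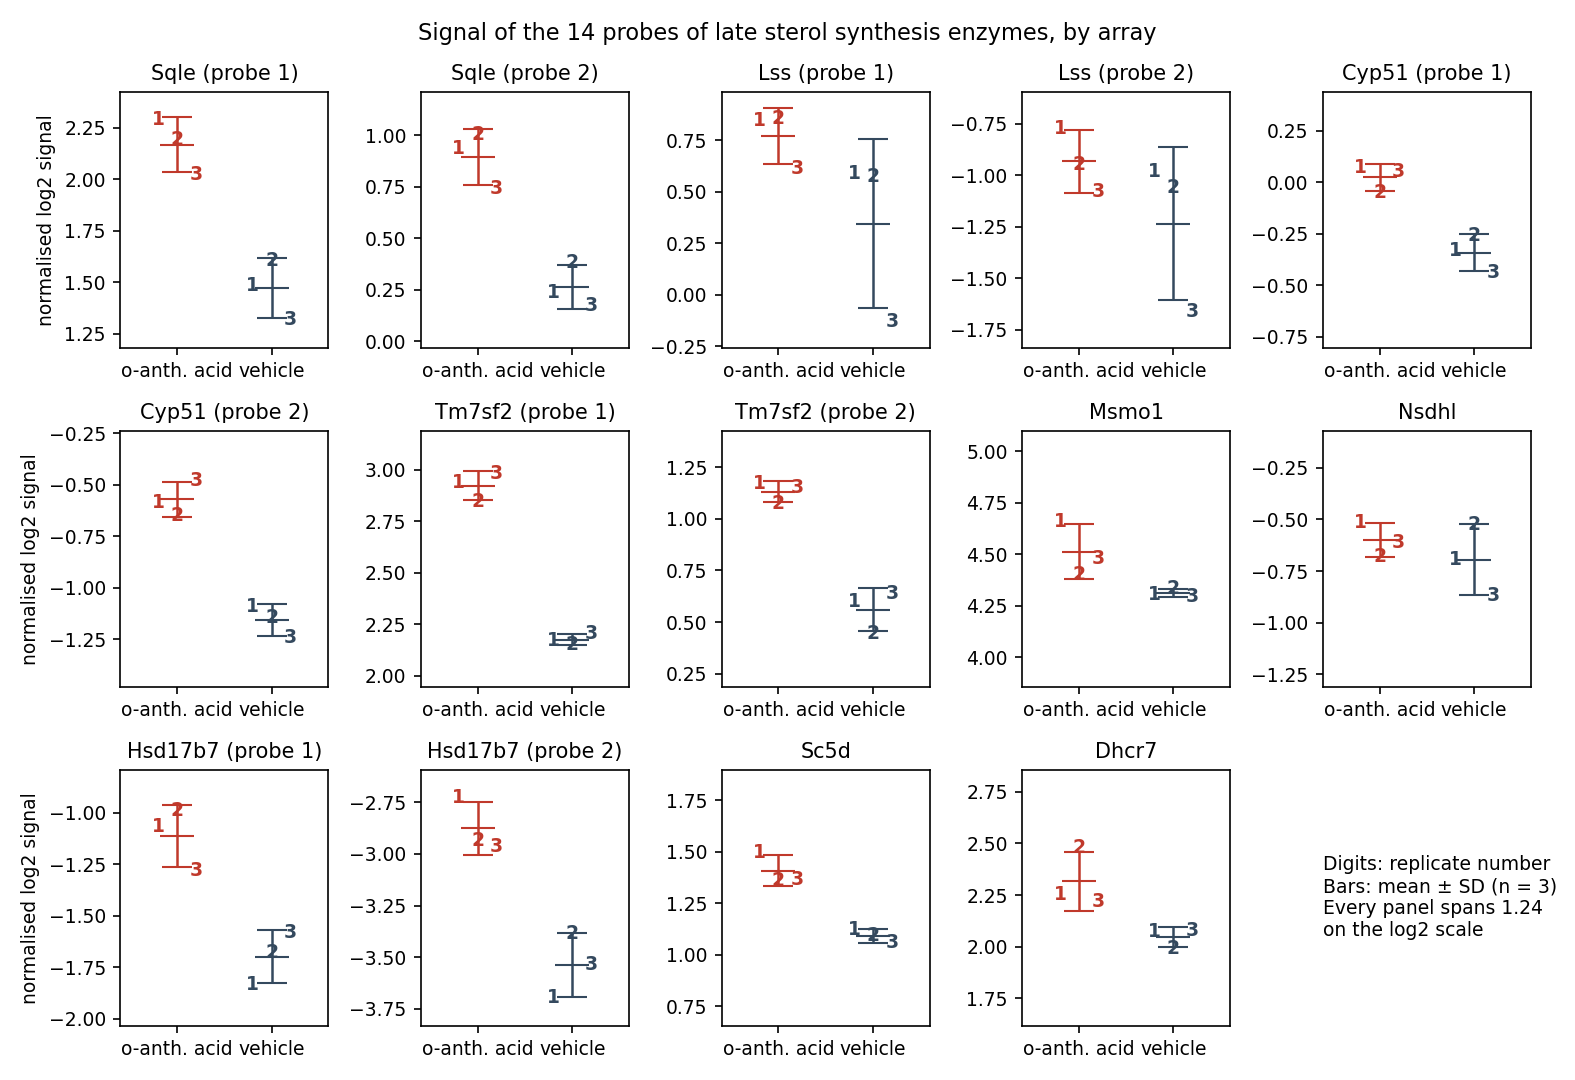
Normalised log2 signal of each of the 14 probes, with o-anthranilic acid arrays on the left and vehicle arrays on the right of each panel; digits are replicate numbers at their value, bars are mean ± SD (n = 3), and all panels span the same log2 range. The groups stand apart at 12 probes, while at Nsdhl and at Lss probe 2 they overlap.

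Promoter sequence was available for 8 of the 9 genes, all but Sqle, from RefSeq on the build GRCr8. In the 250 bases before the gene start, a CCAAT box (CCAAT or its complement ATTGG), the binding motif of the factor NF-Y that works beside SREBPs at many sterol genes, was found in 6 of the 8: Lss, Tm7sf2, Msmo1, Nsdhl, Hsd17b7 and Sc5d. Of all 33469 promoters of that length, 34% held it. Of the 8, Msmo1, Nsdhl and Hsd17b7 held 2 or more matches, with 3, 5 and 3 in that order, as against 9.42% of all promoters with 2 or more. The stretches below are those of these 3, shown for their repeated matches, and of Tm7sf2, the gene with the most widely separated groups. They are printed 5′ to 3′ on the gene's strand, with CCAAT or ATTGG in capitals. They lie at chr1:212789542-212789791 on the minus strand for Tm7sf2, chr16:29746863-29747112 on the plus strand for Msmo1, chrX:155817110-155817359 on the plus strand for Nsdhl and chr13:84722755-84723004 on the minus strand for Hsd17b7.
Tm7sf2: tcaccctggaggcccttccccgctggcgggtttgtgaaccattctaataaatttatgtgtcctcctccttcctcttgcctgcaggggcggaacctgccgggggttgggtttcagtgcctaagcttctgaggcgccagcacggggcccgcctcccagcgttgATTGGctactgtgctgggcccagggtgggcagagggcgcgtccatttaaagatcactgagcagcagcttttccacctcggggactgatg
Msmo1: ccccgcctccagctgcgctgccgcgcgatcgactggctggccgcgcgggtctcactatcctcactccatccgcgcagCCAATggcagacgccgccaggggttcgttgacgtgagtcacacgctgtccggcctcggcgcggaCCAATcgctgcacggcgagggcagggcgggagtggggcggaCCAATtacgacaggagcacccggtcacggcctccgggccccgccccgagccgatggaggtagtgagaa
Nsdhl: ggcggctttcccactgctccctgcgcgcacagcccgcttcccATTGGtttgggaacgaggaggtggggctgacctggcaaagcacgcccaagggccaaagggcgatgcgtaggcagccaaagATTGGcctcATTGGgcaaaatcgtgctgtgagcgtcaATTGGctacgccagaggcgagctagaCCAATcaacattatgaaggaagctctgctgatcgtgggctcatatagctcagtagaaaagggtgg
Hsd17b7: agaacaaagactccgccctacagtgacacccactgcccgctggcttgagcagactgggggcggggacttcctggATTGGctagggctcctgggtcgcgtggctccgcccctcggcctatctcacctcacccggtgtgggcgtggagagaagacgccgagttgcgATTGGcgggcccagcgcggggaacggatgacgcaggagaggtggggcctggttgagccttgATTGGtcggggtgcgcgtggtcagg

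In 5 of the 6 genes with a CCAAT box, 1 match spelled ATTGG and lay between 91 and 78 bases before the start. These bounds and the spelling were read from the same matches. The share of all promoters with ATTGG there was not counted, so nothing is read from this. The number of CCAAT boxes is given here beside the treated-minus-vehicle difference, on which the genes had been chosen. A link between them was not tested. Nsdhl had 5 matches and the smallest log2 fold change, 0.09, Tm7sf2 had 1 match and 0.66, and Cyp51 had none in this window and 0.48. Msmo1 and Hsd17b7 had 3 each, at 0.20 and 0.62. Lss and Sc5d had 1 each, at 0.36 and 0.32, and Dhcr7 had none, at 0.27. A GC box (GGGCGG or CCGCCC, a motif of Sp1 family factors that can share its first letters with the end of ATTGG) was found in 7 of the 8, all but Nsdhl, and in 30.5% of all promoters. The share of G and C was between 57.6% and 70.8% in the 8, where the median of all promoters was 51.2%. The classical sterol regulatory element, bound by SREBPs, was found on either strand in 0 of the 8 and in 0.105% of all promoters. A looser spelling that lies within it, TCACNCCA, was found in Msmo1, from 190 to 183 bases before the start, and in 3.24% of all promoters. The E box CACGTG was found in Sc5d and in 5.59% of all promoters. These are matches of letters in 1 window, not measured binding.

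Sqle (NM_017136) encodes squalene epoxidase, which adds oxygen to squalene and is one of the rate-controlling enzymes of the pathway. Its brighter probe stood at 2.29, 2.19 and 2.02 on treated arrays 1, 2 and 3, against 1.49, 1.61 and 1.32 on vehicle arrays 1, 2 and 3. The lowest treated value was 0.42 above the highest vehicle value. The dimmer probe stood at 0.94, 1.00 and 0.74 on the treated arrays and 0.23, 0.38 and 0.17 on the vehicle arrays, and again the groups stood apart. The log2 fold changes were 0.70 ± 0.11 and 0.63 ± 0.10 (SE, n = 3 per group), or 1.62-fold and 1.55-fold. Both probes put treated replicate 3 lowest among treated animals and vehicle replicate 3 lowest among vehicle animals.

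Lss (NM_031049), lanosterol synthase, closes the sterol rings in a single reaction. Its brighter probe stood at 0.84, 0.86 and 0.61 on the treated arrays, against 0.59, 0.58 and -0.13 on the vehicle arrays. The groups were parted by 0.03 only, and vehicle replicate 3 lay far below the other vehicle animals. The dimmer probe gave -0.77, -0.95 and -1.08 on the treated arrays and -0.98, -1.06 and -1.66 on the vehicle arrays, where treated replicate 3 lay among the vehicle values. The log2 fold changes were 0.43 ± 0.21 and 0.30 ± 0.20 (SE), with the widest errors of the 14 probes. Averaged over both probes, Lss stood at 0.36, and at 0.14 without vehicle replicate 3.

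Cyp51 (NM_012941) encodes lanosterol demethylase, the cytochrome P450 of the pathway and the target of azole antifungal drugs in fungi. One probe stood at 0.07, -0.05 and 0.05 on the treated arrays, against -0.33, -0.26 and -0.44 on the vehicle arrays. The other stood at -0.59, -0.65 and -0.48 on the treated arrays, against -1.09, -1.14 and -1.24 on the vehicle arrays. Neither probe had overlapping groups. The log2 fold changes were 0.37 ± 0.08 and 0.59 ± 0.08 (SE), so its probes differed by 0.22, the widest gap among the 5 genes with 2 probes.

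Tm7sf2 (NM_001013071) encodes a sterol reductase that removes the double bond which Cyp51 leaves behind, a reaction that the lamin B receptor Lbr can also carry out. Its brighter probe stood at 2.94, 2.85 and 2.98 on the treated arrays, against 2.17, 2.15 and 2.21 on the vehicle arrays. The animals of each group lay close together, with 0.64 between the lowest treated and the highest vehicle value, the widest separation of the 14 probes. The dimmer probe stood at 1.17, 1.07 and 1.15 on the treated arrays, against 0.60, 0.44 and 0.64 on the vehicle arrays. The log2 fold changes were 0.75 ± 0.07 and 0.57 ± 0.08 (SE), or 1.68-fold and 1.49-fold.

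Msmo1, Nsdhl and Hsd17b7 act in turn to strip a pair of methyl groups from the sterol: Msmo1 oxidises the methyl group, Nsdhl removes it as carbon dioxide and leaves a ketone, and Hsd17b7 reduces the ketone. Msmo1 (NM_080886) stood at 4.66, 4.40 and 4.48 on the treated arrays, against 4.30, 4.33 and 4.30 on the vehicle arrays. The vehicle animals were within 0.04 of each other, and treated replicate 2 lay only 0.07 above the highest of them. The log2 fold change was 0.20 ± 0.09 (SE), and 0.13 without treated replicate 1. Nsdhl (NM_001009399) stood at -0.52, -0.68 and -0.61 on the treated arrays, against -0.69, -0.52 and -0.87 on the vehicle arrays. Treated replicates 2 and 3 lay inside the vehicle range and treated replicate 1 level with the highest vehicle animal, and the log2 fold change of 0.09 ± 0.11 (SE) was smaller than its standard error. It was 0.01 without vehicle replicate 3 and 0.18 without vehicle replicate 2.

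Hsd17b7 (NM_017235), which is also known as a hydroxysteroid dehydrogenase of oestrogen metabolism, had probes whose groups stood apart. The brighter one stood at -1.07, -0.99 and -1.28 on the treated arrays, against -1.84, -1.68 and -1.58 on the vehicle arrays. The dimmer one stood at -2.73, -2.93 and -2.96 on the treated arrays, against -3.70, -3.38 and -3.53 on the vehicle arrays. The log2 fold changes were 0.59 ± 0.11 and 0.66 ± 0.11 (SE), or 1.50-fold and 1.58-fold. The dimmer probe was the faintest of the 14, with a processed brightness of 141, 129 and 125 on the treated arrays and 71.4, 96.7 and 75.3 on the vehicle arrays. With normexp background correction, which adds an offset of 50, its log2 fold change was 0.45.

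Sc5d (NM_053642), a desaturase that acts ahead of Dhcr7, stood at 1.49, 1.36 and 1.37 on the treated arrays, against 1.12, 1.10 and 1.06 on the vehicle arrays. The groups were parted by 0.24, and the log2 fold change was 0.32 ± 0.07 (SE). Dhcr7 (NM_022389), the reductase whose loss causes Smith-Lemli-Opitz syndrome in humans, stood at 2.25, 2.48 and 2.22 on the treated arrays, against 2.07, 1.99 and 2.08 on the vehicle arrays. It was the 1 gene of the 9 for which treated replicate 2 was highest. The log2 fold change of Dhcr7 was 0.27 ± 0.09 (SE), and 0.19 without treated replicate 2.

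The arrays were then compared over all 9 genes, each gene taken relative to its vehicle mean. The mean was 0.47, 0.40 and 0.35 on treated arrays 1, 2 and 3, against 0.02, 0.06 and -0.08 on vehicle arrays 1, 2 and 3. Treated replicate 1 was the highest treated animal for 6 of the 9 genes, and vehicle replicate 3 was the lowest vehicle animal for 6. Lss stood at -0.45 on vehicle array 3, and the mean of that array was -0.04 without it. Within the groups the genes did not keep 1 order of animals: treated replicate 2 was lowest for 5 genes and treated replicate 3 for 4.

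**Figure D2:**
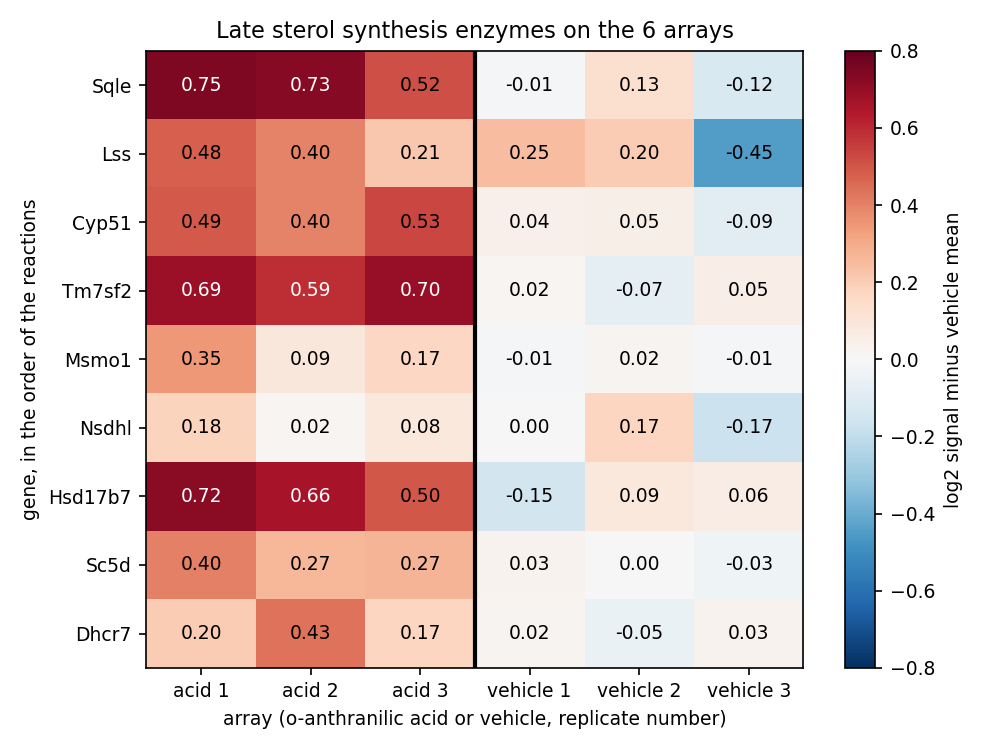
Log2 signal of the 9 genes (rows, in the order of the reactions, mean of a gene's probes) minus the vehicle mean, on the 3 o-anthranilic acid arrays (left of the line) and the 3 vehicle arrays (right). Sqle, Tm7sf2 and Hsd17b7 stand between 0.50 and 0.75 on the treated arrays, Nsdhl stays at 0.18 or below, and Lss on vehicle array 3 is at -0.45.

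For genes named by a rule on likeness, the profile over the 6 arrays relative to the vehicle mean was set against the mean profile of the 9 genes. Among the 5 genes with the smallest root mean square difference were Vom2r18 (0.04), Chaf1b (0.06), Gtpbp8 (0.06) and Cd2bp2 (0.07), where the median of all other genes was 0.33. These 4 had log2 fold changes from 0.35 for Cd2bp2 to 0.42 for Chaf1b. They were picked for their small differences, so lying below that median, with fold changes like these, follows from the choice. With the brightest probe alone Cd2bp2 stood at -0.05, and with normexp background correction Vom2r18 stood at 0.16. Of the 9 enzymes themselves, Sc5d and Cyp51 were the nearest to their common mean, at 0.07 and 0.08, and Nsdhl the farthest, at 0.23.

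The rest of the pathway was read in the same fit, from lists written with earlier results of these data known. Of the other enzymes after squalene, Lbr was not matched by accession. Ebp (NM_057137), the isomerase between Hsd17b7 and Sc5d, stood at 3.98, 3.92 and 3.98 on the treated arrays, against 3.91, 3.97 and 4.06 on the vehicle arrays, so that the log2 fold change was -0.02 ± 0.07 (SE, limma adjusted p 0.956). The groups overlapped, with the highest value on a vehicle array.

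Over the 9 enzymes from acetyl-CoA to squalene the median log2 fold change was 0.06, where the 9 after squalene had 0.36, and 8 of them were above 0. None of their 18 probes was called by limma with adjustment over all probes. At an unadjusted p under 0.05 there were 6 of the 18 higher and 0 lower, where 3.42% of all probes were higher and 5.03% lower. The enzymes above the median were Idi1 (isopentenyl diphosphate isomerase), Hmgcs1 (HMG-CoA synthase), Fdft1 (squalene synthase, just ahead of Sqle) and Fdps. They stood at 0.34, 0.27, 0.18 and 0.09 in that order. The 6 probes counted above were all of Hmgcs1, Idi1 or Fdft1, and probes of 1 gene are not independent. The difference between the stretches was not tested, since the 9 later enzymes had been chosen on this contrast.

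**Figure D3:**
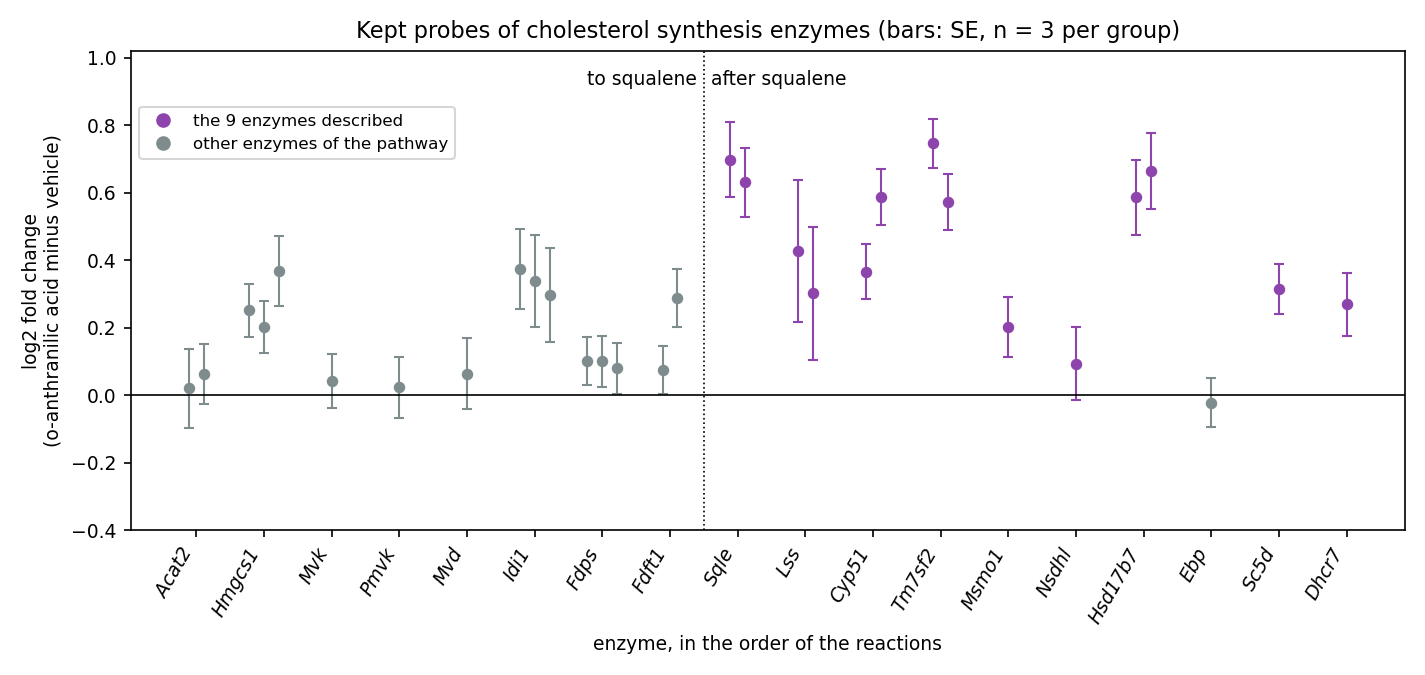
Log2 fold change (o-anthranilic acid minus vehicle) of the kept probes of cholesterol synthesis enzymes, in the order of the reactions; bars are SE from limma (n = 3 per group), and the dotted line marks squalene. The 9 enzymes described lie between 0.09 and 0.75, Ebp lies at -0.02, and the enzymes shown before squalene lie between 0.02 and 0.37.

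Among genes of sterol sensing, Insig1 (NM_022392), itself a target of SREBP-2, stood at 0.52, 0.34 and 0.54 on the treated arrays, against 0.24, -0.03 and 0.02 on the vehicle arrays. All 4 of its probes had every treated array above every vehicle array, a pattern that 6.30% of all probes showed. Probes of 1 gene are not independent. Their log2 fold changes ran from 0.36 to 0.41, with a smallest limma adjusted p of 0.458. Srebf2, which encodes SREBP-2, stood at 0.23, its brighter probe at 0.14 ± 0.11 with overlapping groups and its dimmer one at 0.32 ± 0.09 (SE). Insig2 stood at -0.13 ± 0.08 (SE). Its 1 probe had every treated array below every vehicle array, as did 8.61% of all probes. None of the 12 probes of the 6 measured genes was called, and their median over genes was 0.06. Srebf1 was not matched by accession.

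In sterol uptake and traffic, Stard4 (NM_001106159), a carrier of sterol between membranes, stood at -0.08, -0.04 and -0.05 on the treated arrays, against -0.46, -0.56 and -0.49 on the vehicle arrays. Its log2 fold change of 0.45 lay in the range of the 9 enzymes. Mylip, a ubiquitin ligase, was at -0.07, and at 0.05 without treated replicate 1. None of the 17 probes of the 8 genes was called, with a median over genes of 0.07.

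Several of these enzymes need electrons from carrier proteins. Por, the reductase that feeds Sqle and Cyp51, stood at a log2 fold change of 0.06 ± 0.10 (SE, limma adjusted p 0.889; -0.0026 without treated replicate 3), and Cyb5a, the cytochrome that feeds Msmo1 and Sc5d, 0.20 ± 0.09. The 7 genes of this list had a median of -0.01, and none of their 15 probes was called. Cyb5r1 was the lowest at -0.09, with 1 probe at -0.61 ± 0.19 and the other 3 between 0.04 and 0.10. Of 4 measured genes of bile acid and oxysterol synthesis, Ch25h, which makes an oxysterol that suppresses SREBP processing, was at -0.90 ± 0.28 on the same scale (SE, limma adjusted p 0.509). It stood at -1.52, -1.96 and -1.44 on the treated arrays and -0.27, -1.31 and -0.64 on the vehicle arrays. Cyp39a1 was the highest of the 4 at 0.03 (-0.21 without vehicle replicate 2), and the list's median was -0.12, with none of its 5 probes called.

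The arrays were alike in depth of detection, with 63.7% to 68.3% of probes well above background on treated arrays and 66.0% to 69.3% on vehicle arrays. Per the file headers, treated replicate 2 was alone on slide 2, where the median local background was 73, against 32 to 39 on the other arrays. On slide 1 the 3 vehicle arrays were in row 1 and the other 2 treated arrays in row 2, so row and group cannot be told apart there. Treated replicate 2 was in row 1 of its slide, with a mean over the 9 genes of 0.40. It differed from the vehicle arrays in slide as well, and the part of row or slide was not tested. Within slide 1, which gives the same values as the slide as a block, the 9 log2 fold changes ran from 0.13 for Nsdhl to 0.69 for Tm7sf2, with a median of 0.35.

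All 8 proximal tubule markers were kept, with a summed signal (in multiples of the 75th percentile) of 1912 to 2076 on treated arrays and 1968 to 2121 on vehicle arrays. Adrenal cortex, which lies beside the kidney and makes sterols in quantity, was checked with 8 markers. Star, Cyp11a1 and Cyp11b1 were well above background on no array, 3 of the 8 were kept, and their sum was 0.79 to 1.01 on treated arrays and 0.76 to 1.18 on vehicle arrays. Adipocyte markers, with 4 of 5 measured genes kept and Lep above background on no array, summed to 2.11 to 2.54 on treated arrays and 1.49 to 2.13 on vehicle arrays, with 3 of the 4 above 0 as log2 fold changes. Erythrocyte markers, 3 of 3 measured genes kept, summed to 244 to 299 on treated arrays and 195 to 259 on vehicle arrays. In each of these lists the groups overlapped. The part of fat and blood in the differences above was not tested.

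**Figure D4:**
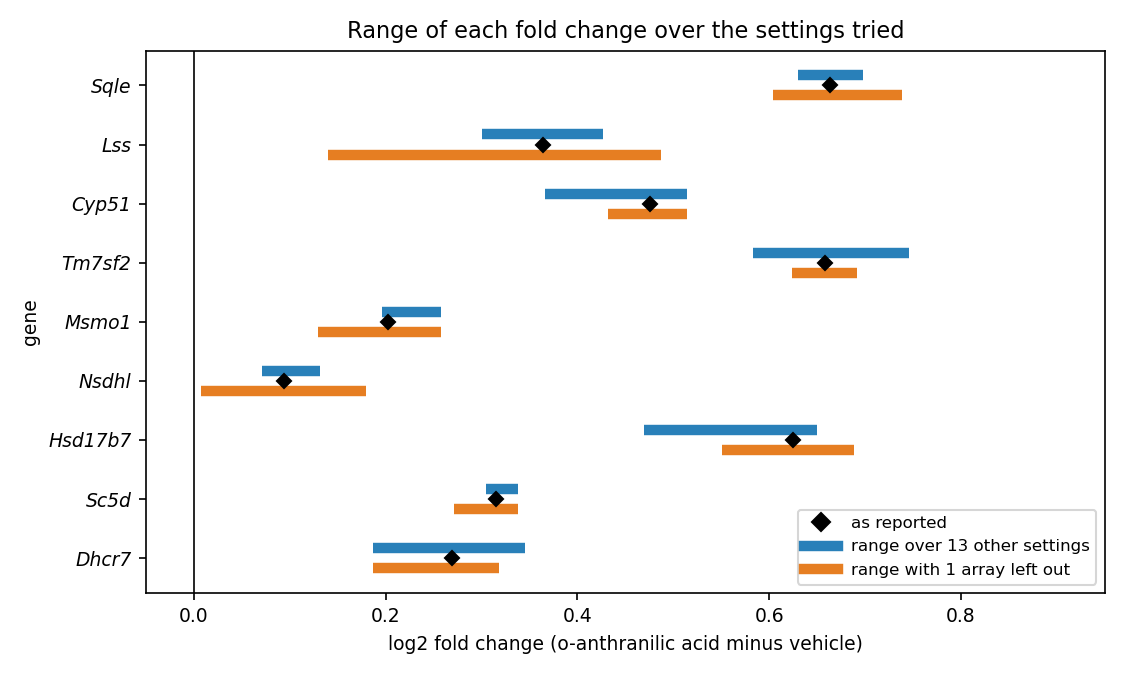
Log2 fold change (o-anthranilic acid minus vehicle) of each of the 9 genes as reported (diamonds), with its range over 13 other settings (upper bars) and with 1 array left out (lower bars). All ranges stay above 0, and the widest is that of Lss with 1 array left out, from 0.14 to 0.49.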

How the data were processed

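Renal cortex RNA of 6 rats was measured, 3 given o-anthranilic acid and 3 vehicle, with groups and replicate numbers from the titles. The submitters' processing notes name Agilent Feature Extraction 10.7. Per the file headers, the scanner files the authors deposited give intensity, background-subtracted and detrended by that software and not scaled between arrays. A deposited table of the authors' values is a ratio: by comparison with the scanner files, the processed signal over the array's 75th percentile, linear and not centred by gene. Its column medians were 0.106, 0.105 and 0.104 for treated replicates 1, 2 and 3 and 0.105, 0.107 and 0.104 for vehicle replicates 1, 2 and 3. Its columns for replicates 1, 2 and 3 matched scanner files 3, 1 and 2 of the same group, so replicates are named by scanner file.

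Of 61657 non-control probes, 84 named for external controls and 47 with outlier flags were left out, and 27435 of the remaining 61526 were named through RefSeq accessions (GRCr8). No spot was saturated. The log2 processed signal minus each array's 75th percentile was fitted with limma 3.58.1 in R 4.3.3 (lmFit, eBayes, Benjamini-Hochberg over 41551 probes, those called well above background by the scanner software on 3 or more arrays; threshold 0.05); the fit was tested on simulated data. A gene is the mean of its kept probes. The number of arrays limits the precision, with a median SE of 0.11 over all probes.

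The 9 genes and all lists were chosen with earlier results of these data known. Named genes were the 9, the largest and smallest of each list, a few regulators, and the 5 genes nearest in profile; Stard4, Por and Fdps were named after their values were seen. A few genes that this rule or the lists hold are counted in the lists' sums but not reported here by name. Alternatives were normexp on median signals (the scanner files used here hold no mean spot signal), quantile and median scaling, the percentile over detected probes, the authors' values, both other filters, 1 probe per gene, array weights, a robust fit with a variance trend, replicate and slide blocks, slide 1 alone, and each array left out.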

Additional observations from a re-analysis of the deposited data

How the results depend on the processing

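The log2 fold changes of the 9 genes stayed above 0 in each of the 19 other settings, and their median ran from 0.31 with array weights to 0.37 with median scaling over the 13 settings that do not leave out 1 array each. With 1 array left out it ran from 0.30 without vehicle replicate 3 to 0.49 without vehicle replicate 1. Not every setting could move these values. Both other filters keep all 14 probes, and the robust fit and the replicate block leave the fold changes as they are. The slide block, slide 1 alone and leaving out treated replicate 2 gave the same values. The 9 genes were also chosen on this contrast. limma called 0 probes in the reported fit, 6 with normexp background correction, 6 with a robust fit and variance trend, 1 with the filter of all 6 arrays, 4 with the slide as a block, 4 on slide 1 alone, and from 0 to 4 with 1 array left out: 3 without treated replicate 1, 4 without treated replicate 2 (the same fit as slide 1 alone), 3 without vehicle replicate 2 and 0 without each of the others. Of the 14 probes of the 9 genes, 1 was called in 1 setting, Tm7sf2 in the robust fit, and since the gene was chosen on this contrast the call adds nothing to its description. The other sterol pathway genes had 0 calls in all 19. Probes whose groups do not overlap numbered 6193 of 41551. In 8 other settings they ran from 4498 of 30709 with 1 probe per gene to 7920 of 61526 without the filter on dim probes. These counts depend on the number of probes tested. Single genes moved by more than the spread between replicates in 4 cases: with normexp Tm7sf2 stood at 0.58 and Hsd17b7 at 0.47, and with the brightest probe alone Cyp51 stood at 0.37 and Tm7sf2 at 0.75. Of the other sterol pathway and similar-profile genes named with a value, the sign turned in at least 1 setting for Ebp (-0.06 to 0.02), Mylip (-0.14 to 0.05), Cyp39a1 (-0.21 to 0.25), Por (-0.0026 to 0.16) and Cd2bp2 (-0.05 to 0.40), while Fdft1 stood at 0.07 with the brightest probe alone and Srebf2 at 0.10 without the filter on dim probes; the cause was not tested. Deviations of same-numbered arrays correlated at 0.007, -0.044 and -0.005, and those of other pairs of a treated and a vehicle array at -0.084 to 0.085. With so few arrays these values cannot settle whether replicate numbers pair the animals. With the replicate block limma called 0 probes (3184 at an unadjusted p under 0.05). The median of 0.36 for the 9 genes cannot change there, since each block holds 1 array of each group.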
